A study of Mus musculus with 4 samples.

Results

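The levels of 6 genes tied to ketone body metabolism and to PPAR signalling were followed across the liver RNA-seq libraries of the study, namely Angptl4, Fgf21, Vnn1, Ucp2, Acat1 and Bdh1. They were chosen by gene symbol, and all 6 were found among the 15500 genes of the deposited table, under the Entrez gene numbers 57875, 56636, 22361, 22228, 110446 and 71911 in that order. The mice were wild-type male Kunming mice bought at 5 weeks of age and acclimated for 1 week, with 6 mice per group. The Vehicle group received a chow with 1.5% (w/w) linoleic acid and the CLA group a chow with 1.5% conjugated linoleic acid (CLA), with injections of vehicle where appropriate. According to the sample labels, the GW6471 group received the linoleic acid diet and the CLA+GW6471 group the CLA diet, both with a daily intraperitoneal injection of 20 mg/kg of GW6471, a PPARα antagonist. The diets lasted 28 days and the livers were taken at zeitgeber time 8, counted in hours from lights on. The RNA-seq methods do not describe the groups with GW6471, so their identity rests on the labels. There was 1 library per condition, and whether it pooled several mice is not stated. Hence no replicate error exists, no p-value is given, and every difference below describes these 4 libraries.

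Ketone bodies are made in the mitochondria of hepatocytes when fatty acid oxidation supplies more acetyl-CoA than the citric acid cycle takes up, as in fasting. PPARα, a nuclear receptor activated by fatty acids, is known to raise the genes of this pathway together with secreted factors that act on other tissues. Among the genes described here, Angptl4 encodes a secreted inhibitor of lipoprotein lipase and Fgf21 a hormone of the fasted liver. Vnn1 encodes a pantetheinase on the cell surface, and Ucp2 a carrier of the mitochondrial inner membrane. Acat1 and Bdh1 encode mitochondrial enzymes of ketone body metabolism, the acetoacetyl-CoA thiolase and the dehydrogenase that interconverts acetoacetate and β-hydroxybutyrate.

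In mm9, the assembly the authors mapped to, Angptl4 lies on the minus strand at chr17:33910695-33918520 and Acat1 on the minus strand at chr9:53388627-53418487. Bdh1 lies at chr16:31422366-31458987, Vnn1 at chr10:23614494-23625149 and Ucp2 at chr7:107641846-107650529, all on the plus strand. Fgf21 lies on the minus strand at chr7:52869277-52870860. Promoter sequences from RefSeq (GRCm38.p6) were at hand for 3 of the 6 genes, Fgf21, Ucp2 and Bdh1, the last with 2 start sites. Angptl4, Acat1 and Vnn1 had no entry. The 250 bases before each start were searched on both strands for the nuclear receptor half-site AGGTCA. The search also covered DR1 with at most 3 mismatches. DR1 is a pair of these half-sites with 1 base between them, the form of a PPAR response element. The E-box CACGTG, which CLOCK-BMAL1 is known to bind, was searched for as well. The promoters of Ucp2 and Bdh1 are shown because these genes had the same order of libraries. That of Fgf21 is shown because its letters held the E-box although the gene had almost no reads. Binding of CLOCK-BMAL1 to it was not tested. Capitals mark a match to an element. The half-site is contained in an exact DR1, and the E-box was added to the search after the other elements. The sequences are those of GRCm38 chr7:100493108-100493357 (plus strand), chr16:31422047-31422296 (plus strand) and chr7:45615491-45615740 (minus strand), 5′ to 3′.

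Ucp2: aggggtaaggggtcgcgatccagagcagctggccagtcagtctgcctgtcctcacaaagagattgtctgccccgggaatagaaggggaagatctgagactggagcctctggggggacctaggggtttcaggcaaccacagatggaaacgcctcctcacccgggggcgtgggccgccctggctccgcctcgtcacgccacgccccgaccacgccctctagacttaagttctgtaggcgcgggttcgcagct
Bdh1: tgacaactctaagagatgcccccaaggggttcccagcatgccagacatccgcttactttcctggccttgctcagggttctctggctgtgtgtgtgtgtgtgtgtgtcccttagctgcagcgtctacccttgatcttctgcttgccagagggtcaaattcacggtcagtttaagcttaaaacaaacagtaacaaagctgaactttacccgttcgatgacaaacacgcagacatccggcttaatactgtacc
Fgf21: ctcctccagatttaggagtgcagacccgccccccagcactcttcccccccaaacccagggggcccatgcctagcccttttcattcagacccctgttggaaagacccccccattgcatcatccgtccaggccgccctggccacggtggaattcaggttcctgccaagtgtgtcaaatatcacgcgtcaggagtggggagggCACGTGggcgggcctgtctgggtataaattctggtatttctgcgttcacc

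The Fgf21 promoter held the E-box from 50 to 45 bases before its start, an element present in 6.02% of the 32851 promoters of this length. The first Bdh1 promoter and the Ucp2 promoter held no match to any of the 3 elements in these windows. At the second Bdh1 start, a DR1 with 3 mismatches stood 169 to 157 bases upstream, at chr16:31428576-31428604 with its flanks, on the plus strand of GRCm38, and reads ggaagcgaAGATCAGATGACAgcgaggat. Such a match occurred in 21.3% of all promoters and the exact half-site, which none of the 4 windows of these genes held, in 14.0%.

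The deposited values are FPKM, mapped fragments scaled to transcript length and to library size, so levels of different genes can be set side by side. Between the libraries the FPKM sums ran from 497015 to 522893, and the depth estimated from the steps between low values ran from 18796992 to 19267823 reads. The labelled tissue was checked against 18 hepatocyte genes, of which 14 were listed and 5 reached a mean of 1 FPKM. Alb stood at 620 to 1322 FPKM and Hnf4a at 47.2 to 54.5 FPKM, whereas Ttr was at most 0.04, Cps1 at most 0.03 and Cyp2e1 at most 0.10 FPKM. The defining hepatocyte genes Ttr, Cps1, Cyp2e1 and Cyp7a1 were thus at or near 0 in all 4 libraries of a tissue labelled liver. Of the other cell types, the 7 listed endothelial genes summed to at most 1.17 FPKM, the 3 listed muscle genes to at most 0.58, the 4 listed erythroid genes to at most 2.48 and the 3 listed exocrine pancreas genes, led by Cela1, to at most 6.09 FPKM. The 7 listed macrophage genes summed to 44.5 to 64.6 FPKM, mainly from Cd68 and Cd14, with Ptprc at most 0.01 FPKM. The 6 listed adipocyte genes, led by Pparg, summed to 24.8 to 28.7 FPKM, with Adipoq at most 0.08 FPKM. The 9 listed stellate and fibroblast genes summed to 1151 to 1510 FPKM, almost all of it Dcn, with Col3a1 at most 0.01 FPKM. The 8 listed cholangiocyte genes summed to 426 to 671 FPKM, led by Spp1, with Krt19 at most 0.28 FPKM. In such bulk samples, a smaller number of cells of a type and less RNA per cell cannot be told apart.

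The receptors themselves were unequal. Ppara, which encodes the receptor that GW6471 blocks, had 0.15 (Vehicle), 0.11 (CLA), 0.06 (GW6471) and 0.07 FPKM (CLA+GW6471), or 2 to 4 estimated reads per library. Pparg had 8.06 to 10.7 FPKM and Ppard 19.8 to 27.3 FPKM over the libraries. No receptor of the PPAR and RXR list with a mean of at least 1 FPKM (4 of the 5 listed) differed by 1.5-fold in any of the 4 comparisons. Few of all genes with that mean did so either, 2.1% to 9.16% in each direction of a comparison. Hence 4 genes without such a difference do not stand out.

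The 6 genes spanned a wide range of levels. Ucp2 was the highest, with a mean of 198 FPKM, which ranked it number 352 of the 15500 genes. Angptl4 followed with 20.2, Acat1 with 11.1 and Vnn1 with 2.47 FPKM. Bdh1 had a mean of 0.835 FPKM and Fgf21 of 0.0275 FPKM. Of the 6 genes, 4 reached the mean of 1 FPKM required for a call, and Bdh1 and Fgf21 did not. A gene was called higher or lower when its ratio between 2 libraries, computed on FPKM + 0.1, reached 1.5-fold. For each plain FPKM ratio a 95% counting interval (exact Clopper-Pearson) was computed from estimated reads. It covers counting error only, not the difference between animals. Reads were estimated with the coding length. With the longest transcript, 15 of the 20 ratios stayed on the same side of 1 or within the interval, and 5 went from within it to beyond it: Angptl4 and Vnn1 in CLA against Vehicle, Bdh1 and Acat1 in GW6471 against Vehicle, and Vnn1 in CLA+GW6471 against GW6471.

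**Figure D1:**
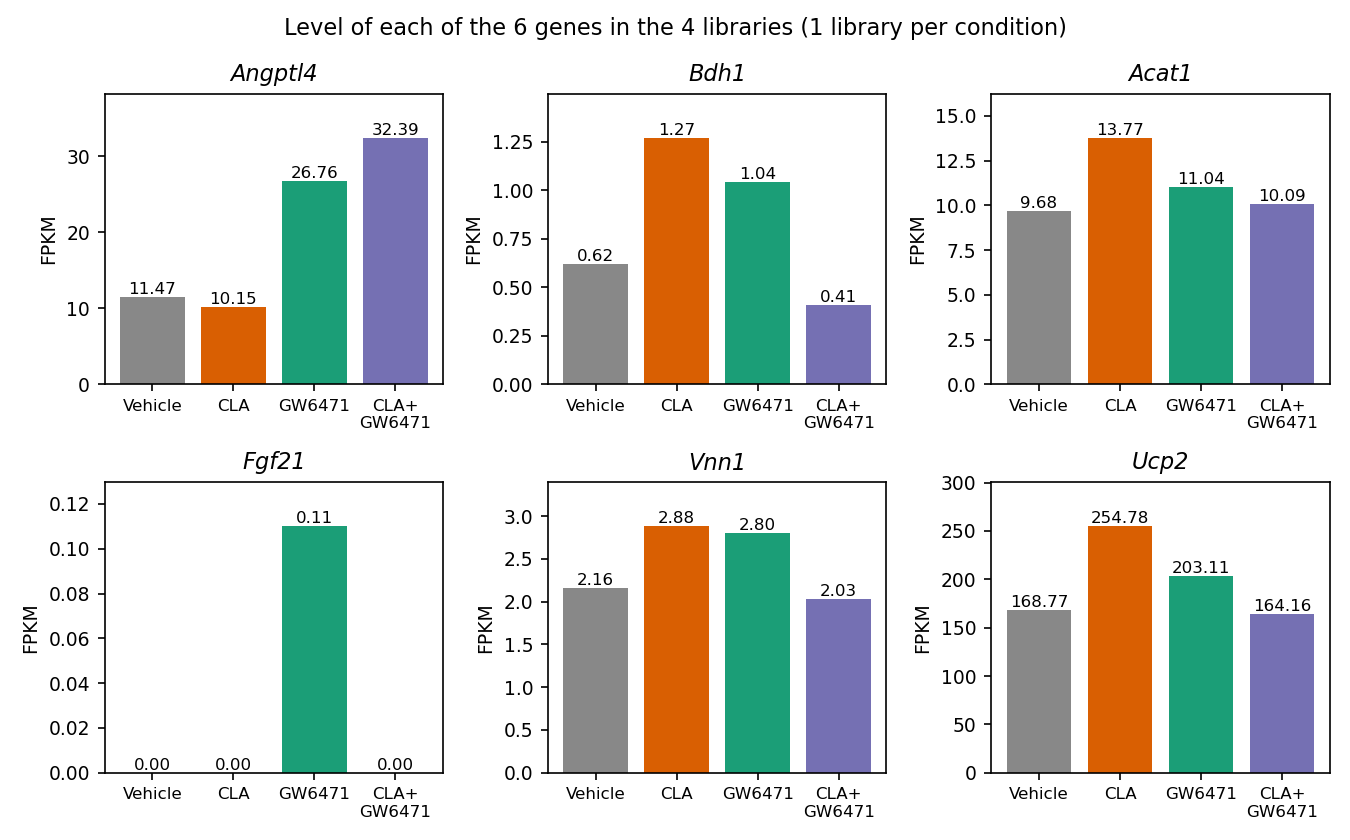
FPKM of each of the 6 genes (vertical axis, linear, starting at 0) in the 4 libraries, with 1 bar per library and the value above it. Angptl4 is high in both libraries with GW6471, at 26.76 and 32.39 FPKM, while Bdh1, Acat1, Vnn1 and Ucp2 are highest in CLA and second in GW6471, and Fgf21 is above 0 only in GW6471.

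Angptl4 alone among the 6 genes had both libraries with GW6471 uppermost. It had 11.47 (Vehicle), 10.15 (CLA), 26.76 (GW6471) and 32.39 FPKM (CLA+GW6471). Both libraries with GW6471 thus lay above both libraries without it, and the compound labelled as an antagonist of PPARα went with higher, not lower, Angptl4. Whether the labels of the libraries are right was not tested, and a swap of columns would change what these ratios compare. GW6471 against Vehicle gave a ratio of 2.33 (95% counting interval 2.02 to 2.70), a log2 ratio of 1.22 on the FPKM + 0.1 scale. CLA+GW6471 against CLA gave a ratio of 3.19 (2.75 to 3.71), a log2 ratio of 1.66. These comparisons share no library. The CLA diet went with smaller differences, a ratio of 0.885 (0.738 to 1.06) against Vehicle and of 1.21 (1.09 to 1.35) in the mice that received GW6471. The former lay within counting error and the latter beyond it, although neither reached 1.5-fold.

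A call higher with GW6471 on both diets was rare. It was met by 18 of the 10355 genes tested, or 0.174%. Angptl4 was 1 of them, and 5 others were on the list of 35 PPARα targets written without the 6 genes. These were Acot1, Acot2, Cpt1a, Pdk4 and Plin2, from the 23 genes of that list among the 10355 tested. These 18 genes were looked up after the values of Angptl4 were seen. Pdk4, which encodes a kinase that shuts off pyruvate oxidation, went from 1.17 FPKM in Vehicle to 17.99 in GW6471, and from 1.87 in CLA to 15.56 in CLA+GW6471. Cpt1a, the gene of the entry enzyme of mitochondrial fatty acid oxidation, had 11.34, 15.98, 46.04 and 43.13 FPKM in Vehicle, CLA, GW6471 and CLA+GW6471. Only Klf11, Pdk4 and Pet117 were at least as high as Angptl4 in both ratios. The reads of Acot1 and Acot2 are uncertain, since these genes are close paralogs.

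**Figure D2:**
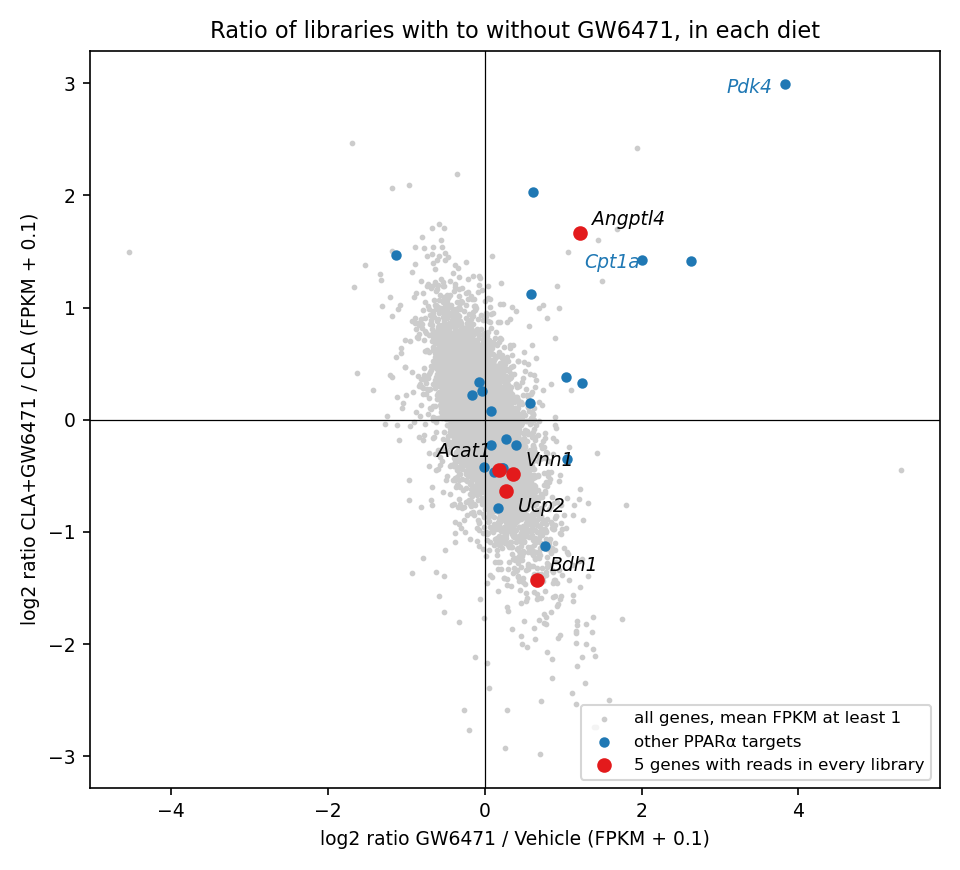
Log2 ratio of GW6471 to Vehicle (horizontal axis) against that of CLA+GW6471 to CLA (vertical axis), both on FPKM + 0.1, with 1 point per gene. Grey points are the 10355 genes with a mean of at least 1 FPKM, blue points the other PPARα targets and red points the 5 genes with reads in every library. Angptl4 lies in the upper right at 1.22 and 1.66 with Pdk4 and Cpt1a, and Bdh1, Vnn1, Ucp2 and Acat1 lie to the lower right of 0.

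The gene most like Angptl4 over the 4 libraries was Hilpda, which encodes a lipid droplet protein that inhibits triglyceride lipolysis. The measure of likeness was the Euclidean distance between log2(FPKM + 0.1) profiles centred on their mean, among 8011 genes with a mean of at least 5 FPKM. Hilpda had 90.15 (Vehicle), 80.45 (CLA), 187.82 (GW6471) and 227.47 FPKM (CLA+GW6471), at a distance of 0.16. It was the only gene within 0.2 of Angptl4. Fam71f2 followed at 0.42 and Prickle1 at 0.52.

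Fgf21 was at the limit of what these libraries can show. It was listed at 0 FPKM in Vehicle, CLA and CLA+GW6471, and at 0.11 FPKM in GW6471, the equivalent of 1 estimated read. A library without reads allows a level of up to 0.249 FPKM for this gene (3 counts), so no difference between the libraries was detectable at this depth, and no ratio is given. The genes through which FGF21 acts were present in part. Klb, its obligate co-receptor, had 0.36 to 0.48 FPKM, Fgfr1 10.0 to 13.7 FPKM and Fgfr4 6.12 to 12.3 FPKM. Of the list of 11 genes around the FGF21 receptor, 5 had a mean of at least 1 FPKM. In CLA against Vehicle 2 of the 5 were called higher, beside 7.33% of all genes, namely Fgf1 with 2.97 against 0.89 FPKM and Fgfr4 with 12.27 against 6.59 FPKM, and none lower. Both were called lower in CLA+GW6471 against CLA and against GW6471, beside 9.16% and 3.88% of all genes. Fgf1 was also the 1 gene of the list called in GW6471 against Vehicle, higher with 1.60 FPKM, beside 3.29% of all genes, a call lost with a pseudocount of 1. Fgf1 rests on 7 to 26 estimated reads, and its ratios of GW6471 to Vehicle (95% counting interval 0.677 to 4.76) and of CLA+GW6471 to GW6471 (0.169 to 1.31) lay within counting error.

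Ucp2 had 168.77 (Vehicle), 254.78 (CLA), 203.11 (GW6471) and 164.16 FPKM (CLA+GW6471). It was highest with CLA alone, second with GW6471 alone, and nearly equal in Vehicle and CLA+GW6471. CLA against Vehicle gave a ratio of 1.51 (95% counting interval 1.44 to 1.58). With the libraries scaled to a common FPKM sum, the log2 ratio fell from 0.59 to 0.56, below the 0.58 of a 1.5-fold call. CLA+GW6471 against CLA gave a ratio of 0.644 (0.615 to 0.675) and was called lower. The ratio of GW6471 to Vehicle, 1.20 (1.15 to 1.26), and that of CLA+GW6471 to GW6471, 0.808 (0.770 to 0.849), lay beyond counting error but short of 1.5-fold.

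Vnn1 had 2.16 (Vehicle), 2.88 (CLA), 2.80 (GW6471) and 2.03 FPKM (CLA+GW6471). The libraries of the single treatments were close to each other and above the remaining pair, which also lay close together. The CLA to Vehicle ratio was 1.33 (95% counting interval 0.942 to 1.87), within counting error. The ratio of CLA+GW6471 to CLA was 0.705 (0.497 to 0.995), at the edge of it. Those of GW6471 to Vehicle, 1.30 (0.915 to 1.82), and of CLA+GW6471 to GW6471, 0.725 (0.511 to 1.02), lay within counting error. Vnn3, its paralog, was at most 0.06 FPKM. Of the 12 tested genes of pantetheine and coenzyme A metabolism, Nudt7 alone was called in CLA against Vehicle, higher with 2.77 against 1.17 FPKM, which as 1 of 12 is near the 7.33% of all genes called higher. Coasy, the enzyme of the last steps of coenzyme A synthesis, had 14.8, 20.5, 17.9 and 14.6 FPKM. Nudt7 encodes a peroxisomal hydrolase of coenzyme A, and was called lower in CLA+GW6471 against CLA (0.98 against 2.77 FPKM) and against GW6471 (0.98 against 1.68 FPKM), beside 9.16% and 3.88% of all genes. The last ratio lay within counting error (15 and 25 estimated reads, 0.291 to 1.17), and its call was lost with a pseudocount of 1.

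Acat1 had 9.68 (Vehicle), 13.77 (CLA), 11.04 (GW6471) and 10.09 FPKM (CLA+GW6471). The CLA library was again the highest, and the other 3 lay within a narrow range. CLA against Vehicle gave a ratio of 1.42 (95% counting interval 1.20 to 1.69) and CLA+GW6471 against CLA a ratio of 0.733 (0.619 to 0.867). GW6471 against Vehicle, at 1.14 (0.954 to 1.37), and CLA+GW6471 against GW6471, at 0.914 (0.765 to 1.09), lay within counting error. No comparison reached 1.5-fold for Acat1.

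Bdh1 had 0.62 (Vehicle), 1.27 (CLA), 1.04 (GW6471) and 0.41 FPKM (CLA+GW6471), or 12, 25, 20 and 8 estimated reads. It followed the same order as Ucp2 and Vnn1, with the widest spread of the 4 genes and the fewest reads. The ratio was 2.05 for CLA against Vehicle, with a 95% counting interval of 1.01 to 4.57. CLA+GW6471 against CLA gave 0.323 (0.122 to 0.714) and CLA+GW6471 against GW6471 gave 0.394 (0.151 to 0.939). GW6471 against Vehicle, at 1.68 (0.767 to 3.70), lay within counting error. Bdh1 was not called in any comparison because its mean stayed under 1 FPKM.

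**Figure D3:**
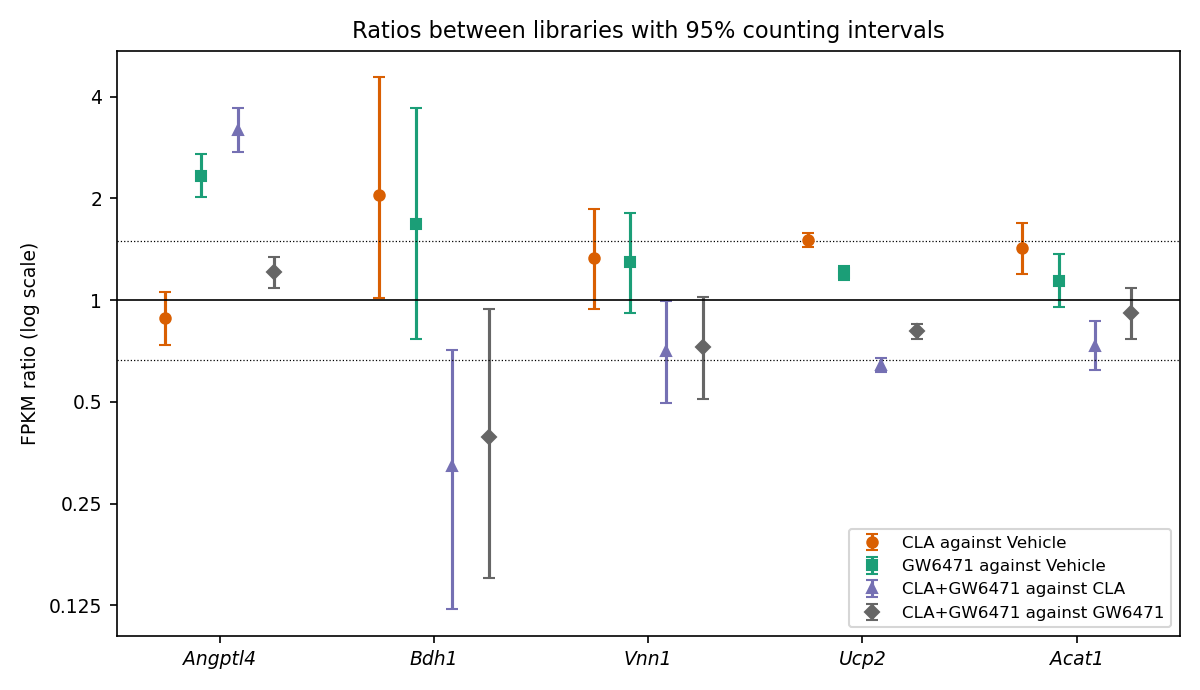
FPKM ratio of each comparison (vertical axis, log scale) for the 5 genes with reads in every library. Points are the ratios of 2 libraries and bars the 95% counting intervals, the solid line marks a ratio of 1 and the dotted lines 1.5-fold either way. Angptl4 has its 2 high ratios, 2.33 and 3.19, where GW6471 is added, whereas Bdh1, Vnn1, Ucp2 and Acat1 are above 1 in CLA against Vehicle and below 1 in CLA+GW6471 against CLA.

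The counts of calls among the 4 tested genes are read beside those over all 10355 genes. In CLA against Vehicle, Ucp2 was called higher and none lower, where 7.33% of all genes were called higher and 4.95% lower. In GW6471 against Vehicle, Angptl4 was called higher and none lower, beside 3.29% and 2.1% of all genes. In CLA+GW6471 against CLA, Angptl4 was called higher and Ucp2 lower, beside 6.84% and 9.16% of all genes. In CLA+GW6471 against GW6471 none was called, beside 2.81% higher and 3.88% lower over all genes. The median log2 ratio of the 4 genes was 0.45, 0.31, -0.46 and -0.22 in these comparisons, against medians between -0.0071 and 0.0090 over all genes.

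The order shared by Bdh1, Acat1, Vnn1 and Ucp2, with CLA and GW6471 both above Vehicle and CLA+GW6471, was common. It was held by 4 of the 5 genes with reads in every library and by 30.2% of all genes tested, while the reverse order was held by 31.8%. Angptl4 had both libraries with GW6471 uppermost, which 9.88% of all genes did. Among the genes with a mean of at least 5 FPKM, 669 lay within a distance of 0.2 of the Acat1 profile, 648 of that of Vnn1 and 522 of that of Ucp2, against 9 for Bdh1. The nearest were Irgm1, Cog4 and Rpa1 for Acat1, Kif3a, Yipf6 and Plcg1 for Vnn1, and H2-T22, Arfgap1 and Tcirg1 for Ucp2, all at a distance of 0.018 to 0.031. For Bdh1 they were Pls3, Slc4a4 and Thbs1, at 0.14 to 0.17. The Bdh1 profile rests on 8 to 25 estimated reads per library, so its distances and its count of near genes are uncertain. The nearest profiles of Fgf21 are not given, since its own rests on 1 estimated read. Between the genes themselves, Acat1 and Ucp2 were closest, at 0.15, and Angptl4 lay 1.64 to 2.23 from Bdh1, Acat1, Vnn1 and Ucp2.

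The summed hepatocyte transcripts had the order of Bdh1, Vnn1 and Ucp2 as well. The 14 listed hepatocyte genes summed to 1005 (Vehicle), 1865 (CLA), 1523 (GW6471) and 931 FPKM (CLA+GW6471), and 4 of the 5 with a mean of at least 1 FPKM had CLA and GW6471 uppermost. Alb, the main part of this sum, had 680, 1322, 1067 and 620 FPKM. Hnf4a was the exception, with 54.5, 47.3, 47.2 and 51.8 FPKM. The sums of the cholangiocyte list (518, 671, 547 and 426 FPKM) and of the stellate and fibroblast list (1291, 1510, 1353 and 1151 FPKM) ran in the same order, the former through Spp1 and the latter through Dcn. Of the 5 tested cholangiocyte genes, 1 had CLA and GW6471 uppermost and 2 had the reverse, among them Sox9 with 54.7, 34.7, 48.7 and 57.0 FPKM. The macrophage genes summed to 48.2, 64.6, 46.9 and 44.5 FPKM, and the adipocyte genes to 24.8, 28.7, 26.3 and 24.9 FPKM. The part of these markers in the values of Bdh1, Acat1, Vnn1 and Ucp2 was not tested.

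The ratios for the CLA diet had opposite signs without and with GW6471 in all 5 genes with reads in every library, and both lay beyond counting error for Bdh1 and Ucp2. Opposite signs were common among all genes tested. They follow from the order with CLA and GW6471 uppermost, held by 30.2%, and from the reverse order, held by 31.8%. For Bdh1 the log2 ratio of CLA to Vehicle was 0.93 and that of CLA+GW6471 to GW6471 was -1.16, a difference of -2.09. The corresponding differences were -0.90 for Ucp2, -0.84 for Vnn1 and -0.63 for Acat1. For Vnn1 both ratios lay within counting error, and for Acat1 that with GW6471 did. Angptl4 differed the other way, by 0.45. These differences cannot be tested with 1 library per condition. Over all genes, 40.8% of the 759 called higher in CLA against Vehicle were called lower in CLA+GW6471 against GW6471, and 0.791% higher. None of Angptl4, Acat1, Vnn1 and Ucp2 was called for the CLA diet in the mice with GW6471.

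The genes of ketone body metabolism were also followed as a list. Of the 15 genes of the list, which holds Acat1 and Bdh1, 8 had a mean of at least 1 FPKM. In CLA against Vehicle 2 were called higher, Acat2 with 12.44 against 3.14 FPKM and Aacs with 28.09 against 18.42 FPKM, and none lower, beside 7.33% and 4.95% of all genes, with a median log2 ratio of 0.19. The median was -0.06 for GW6471 against Vehicle, -0.28 for CLA+GW6471 against CLA and -0.03 for CLA+GW6471 against GW6471. Acat2 encodes the cytosolic thiolase and Aacs the cytosolic acetoacetyl-CoA synthetase, which both feed sterol and lipid synthesis rather than ketone body output. In CLA+GW6471 against CLA both were called lower, with 2.22 and 16.37 FPKM, and Slc16a6, a ketone body transporter of hepatocytes, was called higher with 5.16 against 3.20 FPKM, beside 9.16% of all genes called lower and 6.84% higher. The call of Slc16a6, and that of Aacs in CLA against Vehicle, were lost with a pseudocount of 1. Acat2 was also called higher in GW6471 against Vehicle (6.88 against 3.14 FPKM) and lower in CLA+GW6471 against GW6471, the only calls of the list in these comparisons.

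Bdh2, a cytosolic dehydrogenase, ran from 1.75 to 2.58 FPKM. Oxct1, the transferase through which other tissues use ketone bodies and which hepatocytes are known to lack, had 46.3 (Vehicle), 50.6 (CLA), 37.0 (GW6471) and 36.2 FPKM (CLA+GW6471). The monocarboxylate transporter Slc16a1 ran from 36.1 to 41.1 FPKM.

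**Figure D4:**
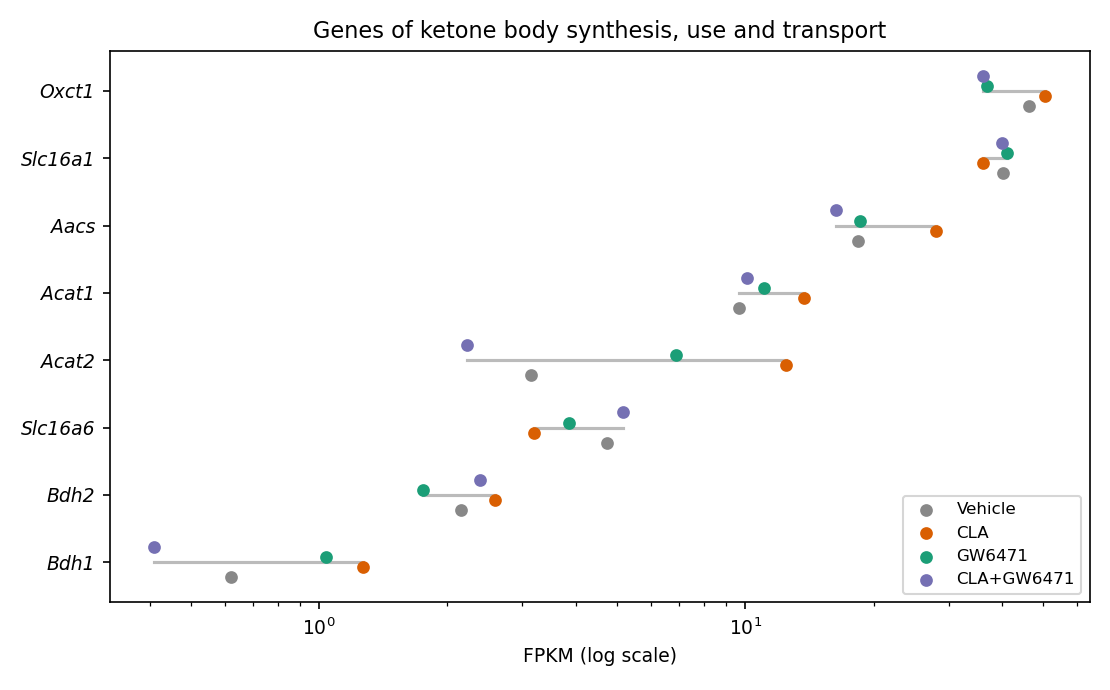
FPKM (horizontal axis, log scale) of 8 genes of ketone body synthesis, use and transport in the 4 libraries, with 1 coloured point per library and a grey line over their range. Acat2 spans 2.22 to 12.44 FPKM and Bdh1 0.41 to 1.27 FPKM, both with CLA at the top, and Slc16a1 stays within 36.1 to 41.1 FPKM.

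Of the 8 tested genes of the lipoprotein lipase system, which include Angptl4, none was called for the CLA diet, without or with GW6471. Over all genes, 7.33% were called higher and 4.95% lower without GW6471, and 2.81% and 3.88% with it. Angptl4 was the only call of this system in GW6471 against Vehicle, beside 3.29% of all genes called higher. On the CLA diet, the other gene called for GW6471 was Apoc2, the activator of lipoprotein lipase, which was lower with 12.04 against 25.78 FPKM, beside 9.16% of all genes called lower. Lmf1, a chaperone of lipase maturation, had 15.8, 20.2, 18.4 and 16.1 FPKM. Lpl itself had 31.4, 35.1, 37.8 and 31.7 FPKM in Vehicle, CLA, GW6471 and CLA+GW6471. Among the 7 tested mitochondrial carriers, Slc25a20, the carnitine-acylcarnitine carrier, was called higher with Ucp2 in CLA against Vehicle (6.61 against 4.12 FPKM, a call lost with a pseudocount of 1), beside 7.33% of all genes. It was the only carrier called in GW6471 against Vehicle (9.83 FPKM), beside 3.29% of all genes. In CLA+GW6471 against CLA, Ucp2 and Slc25a10, the dicarboxylate carrier, were called lower, the latter with 11.17 against 17.40 FPKM, beside 9.16% of all genes.

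Of the 12 tested secreted liver factors, which include Angptl4, 4 were called higher and 1 lower in CLA against Vehicle, beside 7.33% and 4.95% of all genes. In CLA+GW6471 against CLA 2 were higher and 5 lower, beside 6.84% and 9.16%. In GW6471 against Vehicle 2 were higher and none lower, beside 3.29% and 2.1%, and with CLA added to GW6471 none was higher and 1 lower, beside 2.81% and 3.88%. Igfbp1, which binds insulin-like growth factors, had 1030 (Vehicle), 1901 (CLA), 1695 (GW6471) and 953 FPKM (CLA+GW6471), the order of Ucp2 at a higher level. Fst, an activin-binding protein, had 20.0, 32.6, 21.6 and 16.3 FPKM. Gdf15, a stress-induced hormone, had 219, 144, 258 and 295 FPKM, which is the order of Angptl4. Of the 23 tested PPARα targets outside the 6 genes, 5 were called higher and 2 lower in CLA against Vehicle, beside 7.33% and 4.95% of all genes. In GW6471 against Vehicle 9 were higher and 1 lower, beside 3.29% and 2.1%. In CLA+GW6471 against CLA 6 were higher and 2 lower, beside 6.84% and 9.16%, and in CLA+GW6471 against GW6471 1 was higher and 2 lower, beside 2.81% and 3.88%. The median log2 ratio of these targets was 0.36, 0.27, 0.15 and -0.11 in this order, against medians between -0.0071 and 0.0090 over all genes. By the order of the libraries, 9 of the 23 had CLA and GW6471 uppermost, as Ucp2 did, and 9 had both libraries with GW6471 uppermost, as Angptl4 did, beside 30.2% and 9.88% of all genes. Acsl1, an acyl-CoA synthetase, had 34.9, 74.1, 59.8 and 34.0 FPKM, and Cidec, a lipid droplet protein, 5.19, 1.69, 2.32 and 4.85 FPKM.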

How the data were processed

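Liver RNA-seq values were analysed for 4 libraries, 1 per condition. Per the labels and methods, the authors used BWA, Bowtie (assembly mm9) and Cufflinks (versions not given in the sources used here) and deposited FPKM with 2 decimals for 15500 genes. The filter behind that number is not stated, and the table header names no unit. The 6 genes and the gene lists were chosen with earlier results of these data known.

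Ratios were taken as log2 of FPKM + 0.1, which understates changes of low genes, and calls required a mean of 1 FPKM and 1.5-fold. Reads were estimated from the step of low values in 544 short genes with a single transcript (under 1000 nt) and the coding length in GENCODE vM1, which gives if anything too few reads and wide intervals. Cufflinks need not count whole reads, so these estimates are approximate. An FPKM of 0 can be a failed estimate. Each of the 4 comparisons shares a library with 2 of the others. No test of 1 condition against another was possible, as each had 1 library.

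Named genes were the 6 genes, the tested genes of the ketone body list (some genes of the lists enter the counts but are not reported here), the 2 genes per other list with the largest ratio in CLA against Vehicle, the highest marker genes and those near 0, and the 3 nearest profiles per gene. Pdk4, Cpt1a, Ppara, Gdf15, Klb, Fgfr1, Vnn3, Lpl and the genes high with GW6471 on both diets were added after their values were seen. Alternatives were pseudocounts of 0.01 and 1, scaling by the FPKM sum or by medians of ratios, no minimum or a minimum of 5 FPKM, and a 2-fold call. The call step was tested on simulated libraries. Calculations used pandas 2.3.3 and numpy 2.4.6 under Python 3.11.15, with scipy 1.17.1 for intervals and matplotlib 3.10.9 for plots.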

Additional observations from a re-analysis of the deposited data

Results flagged for a closer look

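The CLA diet went with opposite differences without and with GW6471 for Bdh1 and Ucp2, each beyond its counting interval. Opposite signs as such were common. Of all genes tested, 30.2% had CLA and GW6471 uppermost and 31.8% had the reverse, and both orders give opposite signs. The log2 ratio of Bdh1 was 0.93 in CLA against Vehicle and -1.16 in CLA+GW6471 against GW6471, from 8 to 25 estimated reads per library. The log2 ratio of Ucp2 was 0.59 in CLA against Vehicle and -0.31 in CLA+GW6471 against GW6471. With 1 library per condition this contrast was not tested.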

How the results depend on the processing

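No paired analysis was run. Each condition has a single library, so no library could be left out. For the 5 genes with reads in every library, 80 log2 ratios and 20 differences between ratios were recomputed under other pseudocounts and scalings, and all kept their direction. Of the 80 ratios, 4 crossed 1.5-fold, namely Ucp2 in CLA against Vehicle, at 0.56 with a common FPKM sum, and 3 ratios of Bdh1 with a pseudocount of 1. These were 0.49 in CLA against Vehicle, 0.33 for GW6471 on the control diet and -0.53 for CLA with GW6471. Fgf21 was not recomputed. Of the counts over the gene lists, 204 of 252 stayed within 1.5 times the main count, and of the counts over all genes 28 of 56. Counts over all genes are given as higher and lower, first for CLA against Vehicle, then for GW6471 on the control diet, GW6471 on the CLA diet, and last for CLA with GW6471. The main counts were 759 and 513, 341 and 217, 708 and 949, and 291 and 402. Without a minimum level they were 1447 and 1073, 864 and 802, 1328 and 1697, and 899 and 939. From 2-fold they were 185 and 77, 58 and 32, 131 and 276, and 37 and 83. With a minimum of 5 FPKM the counts that moved were 449 and 323, 171 and 97, 597 lower, and 153 and 205. With a pseudocount of 1 those that moved were 333 lower, 201 and 106, and 174 and 254. Among the 6 genes, the number called in CLA against Vehicle was 0 with a common FPKM sum or from 2-fold and 2 without a minimum level. Without that minimum it was 3 for GW6471 on the control diet and 2 for CLA with GW6471, each including Fgf21 with its 1 estimated read, and from 2-fold it was 1 for GW6471 on the CLA diet. Of the ketone body list, 1 gene was called in CLA against Vehicle with a pseudocount of 1, with a common FPKM sum or from 2-fold. Without the minimum 4 were called for GW6471 on the control diet, 6 for GW6471 on the CLA diet and 3 for CLA with GW6471, and from 2-fold 1 for GW6471 on the CLA diet. Depth limits Fgf21 and Bdh1 most, which rest on 1 and on 8 to 25 estimated reads.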
